A study of Mus musculus with 4 samples.

Results

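The genes described here encode proteins of the mitochondrial ribosome and carry an Mrpl or Mrps symbol. They were chosen by symbol alone, as every gene in the deposited count tables whose symbol is Mrpl or Mrps followed by a number and at most 1 further letter. The rule gave 78 of 56691 genes, 49 with an Mrpl symbol (large subunit) and 29 with an Mrps symbol (small subunit). Poly(A) RNA was sequenced from Ter119+ cells of mouse bone marrow, Ter119 being a surface antigen of the erythroid lineage. Cells labelled Med16 KO were compared with cells labelled Med16 fl/fl, whose Med16 alleles are floxed, with 2 libraries for each genotype. The product of Med16 belongs to Mediator, which connects transcription factors with RNA polymerase II, and the study asks what this subunit does in erythroid differentiation. All 4 libraries have a time label of 3 weeks, without a word on the event from which the weeks are counted. The labels used here do not give the agent or promoter that drove the deletion, the deleted exons or the age of the mice, and the letters DK in the titles of the KO libraries are not spelled out. Whether the libraries were made from different mice is not stated either, so p values reflect only how far the 4 libraries vary, and that variation may be technical.

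The mitochondrial ribosome translates the few proteins that mitochondrial DNA encodes, all of them parts of the oxidative phosphorylation complexes of the inner membrane. Its RNAs come from the mitochondrial genome, whereas every protein of it is encoded in the nucleus, made in the cytosol and imported. The small subunit binds the messenger RNA and holds the decoding centre; the large subunit forms the peptide bond and feeds the growing chain towards the inner membrane. Some of its proteins descend from bacterial ribosomal proteins and others were added in the mitochondrial lineage. In the erythroid lineage, mitochondria carry out the first and last steps of haem synthesis and are removed before the red cell is mature.

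Library depth was similar, with 6749196 to 7216333 counts assigned to genes. Other measures differed by genotype. Genes with a count numbered 18947 and 19016 in fl/fl and 16892 and 16479 in KO. Reads not aligned made up 1.05% and 0.826% in fl/fl and 2.69% and 3.27% in KO. A difference in library quality cannot be told apart from genotype here, and its part in the results was not tested. Levels are given as CPM, read counts scaled to library size and TMM factors, and a count of 0 allows up to 0.421 to 0.441 CPM, which covers counting error only. Med16 itself was at 23.2 and 18.4 CPM in the fl/fl libraries and at 2.25 and 4.41 CPM in the KO libraries, a log2 fold change of -2.64 ± 0.34 (SE; edgeR adjusted p = 4.7e-05). All 8 erythroid markers examined were detected in all libraries, with a summed level of 115207 and 117881 CPM in fl/fl and of 109799 and 127154 CPM in KO, and 5 of the 8 were lower in KO, among them Tfrc (-1.02) and Klf1 (-0.60), and 1 was higher. All 8 neutrophil markers were higher in KO, from a summed 12897 and 12734 CPM to 17978 and 18406 CPM. Of the 6 megakaryocyte and platelet markers tested, 5 were higher in KO, with sums of 86.2 and 80.8 CPM against 185 and 185 CPM, and the seventh of that list, Gp1bb, was at 0 in all 4 libraries. Of 6 monocyte and macrophage markers, 2 were higher and 1 lower (sums of 278, 274, 331 and 299 CPM); of 6 B cell markers 1 was higher, and 2 of the 4 endothelial and stromal markers tested were higher (134, 138, 222 and 277 CPM), Lepr being at 0 in 2 libraries. In these bulk libraries a change in the share of a cell type and a change in RNA per cell cannot be told apart, and the part of these markers in the results below was not tested.

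Few mitochondrial ribosomal protein genes were called changed in Med16 KO, and those called were higher. Mrps11 rose 1.63-fold and Mrps35 2.02-fold, both proteins of the small subunit; no gene of the large subunit and no gene in the downward direction passed the test. Of the 78 genes, 76 passed the filter on low counts, and Mrpl53 and Mrps6 did not. The 2 genes called higher among these 76 stand beside 8.32% of all 13052 genes tested called higher, and the 0 called lower beside 10.0% called lower; 18.3% were called in either direction. Scaled by library size alone, 3 of the 76 were called higher, with Mrps34 added, and 0 lower, and over all genes 1347 were higher and 1057 lower in place of 1086 and 1305. At an unadjusted p under 0.05 there were 8 of the 76, all higher in KO, against 3963 (30.4%) of all genes, 14.9% higher and 15.5% lower. DESeq2 called 1 of the 76 higher (Mrps11) and 0 lower, beside 5.83% and 8.02% of all genes. Without fl/fl 1 or without fl/fl 2 neither Mrps11 nor Mrps35 was called, and of all genes 3.80% and 3.39% were called higher and 5.79% and 5.22% lower. Counted among genes of similar level, the 7968 genes tested whose mean lay between 3.99 and 64.5 CPM (the range of the 76), 6.74% were called higher and 4.83% lower. In the narrower band of 12.4 to 25.5 CPM (the quartiles of the 76), 2219 genes were tested, 6.26% called higher and 3.02% lower. Of the 38 mitochondrial ribosomal protein genes in that band, 1 was called higher and 0 lower.

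Most of the genes tested had a log2 fold change above 0. The log2 fold change was positive in 54 (71.1%) and negative in 22 of the 76. Positive values made up 51.5% of all genes tested and 55.3% of the 7968 genes of similar level. The median of the 76 was 0.18, beside 0.02 over all genes tested and 0.06 over genes of similar level. The quartiles were -0.05 and 0.39, and the extremes were -0.47 (Mrpl39) and 1.01 (Mrps35). In 26 of the 76 (34.2%) both KO libraries lay above both fl/fl libraries, in 11 (14.5%) both lay below, and in 39 the genotypes overlapped. Over all genes tested these shares were 29.4% above and 28.2% below, and over genes of similar level 31.2% and 23.4%. The excess over these backgrounds is therefore small in the upward direction, and the share below is lower than in either. The 2219 genes tested between 12.4 and 25.5 CPM had a median of 0.10, with 58.7% positive, 35.0% above and 20.2% below. The 38 mitochondrial ribosomal protein genes in that band had a median of 0.28, with 78.9% positive, 44.7% above and 13.2% below. No test of the list was made. Summed over the 78 genes, the level was 1482 and 1446 CPM in fl/fl and 1571 and 1646 CPM in KO, a ratio of 1.10, or 0.142% to 0.145% of assigned counts against 0.161% to 0.166%. Both KO sums lay above both fl/fl sums.

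**Figure D1:**
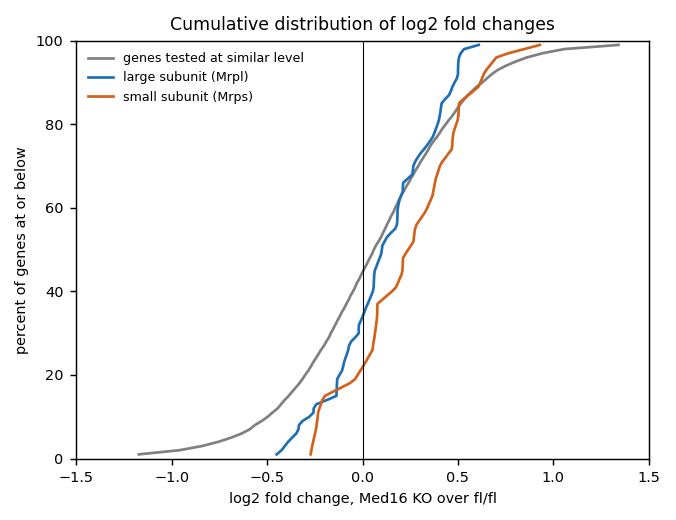
Cumulative percent of genes (vertical axis) at or below a log2 fold change of Med16 KO over fl/fl (horizontal axis), for 48 large subunit genes, 28 small subunit genes and 7968 genes tested at the same range of levels. The lines of both subunits start further right than the grey line and lack its long tails; the medians are 0.10, 0.24 and 0.06.

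The precision of single genes limits what these libraries can show. The SE of the log2 fold change had a median of 0.23 over the 76 genes, whose counts per library ran from 17 (Mrpl33 in KO 2) to 472 (Mrpl48 in fl/fl 2). The 95% interval of the log2 fold change lay within a 2-fold change in either direction for 58 of them and within a 1.5-fold change for 18. The interval of the other 58 reached past a 1.5-fold change, so a change of that size was not excluded for them at this depth.

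Promoter sequences of these genes share letters that are known binding motifs of regulators of nuclear mitochondrial genes. NRF1 and the ETS factor GABP are activators of such genes, and YY1 is a zinc finger factor whose motif often spans a start codon or start site. In the RefSeq promoter table (GRCm38.p6; 250 bases before to 50 after the start), 69 of the 78 genes were found. The motif GCGCA-N-GCGC (NRF1; N is any base) stood on either strand in 13 of the 69 (18.8%) against 5.19% of 27025 genes. CCGGAAG (ETS) stood in 26 (37.7%) against 9.93%, and AAGATGGCG (YY1) in 8 (11.6%) against 1.64%. At least 1 of the 3 was present in 41 of the 69 (59.4%) against 15.1% of all genes. The 27025 genes were not limited to the 13052 genes tested, and shares over expressed genes alone were not taken. CACGTG, the E-box read by MYC and USF factors, was present in 5 (7.25%) against 8.09%. None of these letter strings contains another, although an ETS and a YY1 match can share bases, and a match is a description of the letters, not of binding.

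The YY1 motif is shown because Mrps11, called higher, carries it, and because the genes that carry it include several of the largest positive values that did not pass the test; it was picked from the 4 motifs after these values were seen. Each line is 30 bases, 5′ to 3′ on the strand that reads AAGATGGCG, with the motif in capitals (RefSeq, GRCm38.p6).
Mrps11, chr7:78783013-78783042, minus strand: gggaagacagaAAGATGGCGgcgcccgtag
Mrpl37, chr4:107066821-107066850, minus strand: tgcacgggcaAAGATGGCGgcgtccaggta
Mrps24, chr11:5707652-5707681, minus strand: cgggtcgcgccggcccAAGATGGCGtggtc
Mrps18a, chr17:46111005-46111034, plus strand: ggtgcgttccAAGATGGCGgccctcagggc
Mrpl35, chr6:71823742-71823771, minus strand: ggcaggctgcAAGATGGCGgcttccatctt
Mrpl36, chr13:73330968-73330997, minus strand: cgccaggaagaAAGATGGCGtaaggtcacg
Mrpl42, chr10:95501903-95501932, minus strand: agattgaagcAAGATGGCGagcgcgcggtg
Mrps27, chr13:99344790-99344819, plus strand: ggtgcgctccAAGATGGCGgctcccatggt

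In 6 of these genes the motif lies on the coding strand just after the start, its first base between 12 (Mrps18a) and 37 bases (Mrps24) into the transcript, counting the start as 1. In Mrps11 and Mrpl36 it lies on the opposite strand, before the start. The Mrps11 site also lies on the coding strand of its divergent neighbour Mrpl46, after the Mrpl46 start but past the stretch searched. Mrpl46 was therefore counted among the genes without the motif (log2 fold change 0.41 ± 0.28, genotypes overlapping). Which of these neighbours the site acts on, if any, was not tested. The 8 genes had a median log2 fold change of 0.48, beside 0.08 for the 59 tested genes of the table without the motif. In 5 of the 8 both KO libraries lay above both fl/fl libraries, namely Mrps11, Mrpl37, Mrps24, Mrps18a and Mrpl35 (29.4% of all genes tested lay above), whereas Mrpl42 lay below and Mrpl36 and Mrps27 overlapped. Genes with the NRF1 letters had a median of 0.08 (13 tested, against 0.15 without) and genes with the ETS letters 0.08 (25 tested, against 0.14 without). Genes with the E-box had a median of 0.27 (5 tested, against 0.08 without), above that of the genes without it, as for YY1. With stricter letters for the same factors the median was -0.33 for NRF1 with T as the free base (3 tested, against 0.15 without), -0.05 for ETS with a T added at the end (12 tested, against 0.18 without) and 0.50 for YY1 with GC added at the end (5 tested, against 0.08 without). These medians are descriptions of small groups, and their differences were not tested. Genes with a stricter string are part of the genes with the shorter one, so the medians of a factor are not independent. YY1 was picked after the values were seen, so its medians cannot serve as a test of the motif. Yy1 itself was at 156 and 174 CPM in fl/fl and 151 and 137 CPM in KO (log2 fold change -0.20 ± 0.08, edgeR adjusted p = 0.122).

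A pair of longer stretches shows promoters in which 1 of the other motifs occurs more than once. They are chosen examples and not typical, as only 13 of 69 promoters held the NRF1 letters at all and 26 the ETS letters. Upstream of Mrpl45 the NRF1 letters (in capitals) occur at -120 and -38 from the start, and upstream of Mrpl43 the ETS letters (in capitals) occur at -56 and -12. Both run 5′ to 3′ on the strand of the gene and end at the base before the start (RefSeq, GRCm38.p6).
Mrpl45, chr11:97315466-97315715, plus strand: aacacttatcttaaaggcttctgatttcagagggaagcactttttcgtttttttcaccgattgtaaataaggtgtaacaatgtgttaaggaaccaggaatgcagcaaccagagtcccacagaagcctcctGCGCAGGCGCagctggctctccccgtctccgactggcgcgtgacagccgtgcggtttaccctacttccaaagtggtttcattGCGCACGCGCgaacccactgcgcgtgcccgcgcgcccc
Mrpl43, chr19:45006443-45006557, minus strand: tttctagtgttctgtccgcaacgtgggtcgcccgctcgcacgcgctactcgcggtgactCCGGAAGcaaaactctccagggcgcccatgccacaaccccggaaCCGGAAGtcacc

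Among the small subunit genes, Mrps11 and Mrps35 were the 2 called higher. Mrps11, the counterpart of a bacterial protein on the platform of the subunit, was at 16.4 and 18.0 CPM in fl/fl (116 and 124 counts) and at 28.9 and 27.2 CPM in KO (206 and 185 counts). The genotypes did not overlap and lay far apart relative to the gap within each pair. Its log2 fold change was 0.71 ± 0.20 (SE, 95% interval 0.28 to 1.13; edgeR adjusted p = 0.022). Mrps35, a mitochondria-specific protein of the subunit's head, was at 7.22 and 6.53 CPM in fl/fl (51 and 45 counts) and at 13.6 and 14.1 CPM in KO (97 and 96 counts). Both KO values lay well above both fl/fl values, on low counts, with a log2 fold change of 1.01 ± 0.29 (95% interval 0.38 to 1.64; edgeR adjusted p = 0.025). The call of Mrps11 was lost when the trend of counts with GC content was removed (0.56, adjusted p = 0.073), and that of Mrps35 in DESeq2 (adjusted p = 0.054). Both were lost when a coefficient of variation of 0.2 was assumed (adjusted p = 0.205 and 0.058). Without fl/fl 1 the adjusted p was 0.276 for Mrps11 and 0.183 for Mrps35, and without fl/fl 2 it was 0.155 and 0.288, with the log2 fold change between 0.63 and 1.07.

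Of the other small subunit genes, 3 passed only the unadjusted threshold, and Mrps34 and Mrps15 of these are named after their values were seen. Mrps34, a mitochondria-specific protein required for a stable small subunit, was at 18.3, 16.1, 25.3 and 27.1 CPM in fl/fl 1, fl/fl 2, KO 1 and KO 2, the order used from here on (log2 fold change 0.61 ± 0.20, edgeR adjusted p = 0.052). The genotypes did not overlap, but in the GENCODE M21 annotation 63.4% of its exon length overlaps Mapk8ip3 on the opposite strand and 37.0% overlaps Nme3 on the same strand, so its count is uncertain. Mrps24, a counterpart of a bacterial protein, was at 22.4, 20.6, 27.0 and 32.5 CPM (0.47 ± 0.19, adjusted p = 0.112). Mrps15, likewise of bacterial descent, was at 15.4, 13.8, 21.2 and 20.2 CPM (0.50 ± 0.22, adjusted p = 0.145). In both genes the KO libraries lay above the fl/fl libraries, without passing the test. Mrps26 had a larger log2 fold change (0.64 ± 0.32, adjusted p = 0.193) from values that overlapped, 9.63, 14.2, 12.4 and 24.9 CPM.

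Genes for the decoding region and the head gave log2 fold changes of either sign, none past the threshold. Mrps12, whose bacterial counterpart lies in the decoding centre, was at 15.6, 14.9, 12.1 and 13.4 CPM (log2 fold change -0.26 ± 0.25, adjusted p = 0.537). Mrps7, of the head, was at 29.7, 30.5, 24.6 and 27.7 CPM (-0.20 ± 0.18, adjusted p = 0.494). Both KO libraries of these 2 genes lay below both fl/fl libraries, without passing the test. Mrps5, near the messenger RNA entry, was at 18.0, 18.9, 24.4 and 20.2 CPM (0.28 ± 0.21, adjusted p = 0.427). The 3 homologues of bacterial S18 also gave values of either sign. Mrps18a was at 10.2, 10.3, 16.6 and 12.5 CPM (0.51 ± 0.28, adjusted p = 0.241), Mrps18b at 8.78, 8.12, 10.1 and 9.41 CPM (0.21 ± 0.31, adjusted p = 0.710), and Mrps18c at 4.39, 4.35, 2.81 and 4.41 CPM (-0.28 ± 0.49, adjusted p = 0.763). Mrps18c had the most negative log2 fold change among the small subunit genes, on 20 to 31 counts, and its genotypes overlapped; none of the 3 passed the test.

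An Mrps symbol does not always mean a small subunit protein. In structures of the mammalian mitochondrial ribosome, the products of Mrps18a and Mrps30 sit in the large subunit, and Mrps36 encodes a component of the 2-oxoglutarate dehydrogenase complex. Mrps30 was at 32.1, 28.7, 36.5 and 34.0 CPM (log2 fold change 0.21 ± 0.17, adjusted p = 0.442) and Mrps36 at 19.0, 26.2, 32.6 and 24.3 CPM (0.33 ± 0.22, adjusted p = 0.337). The KO values of Mrps30 lay above its fl/fl values, and those of Mrps36 overlapped.

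**Figure D2:**
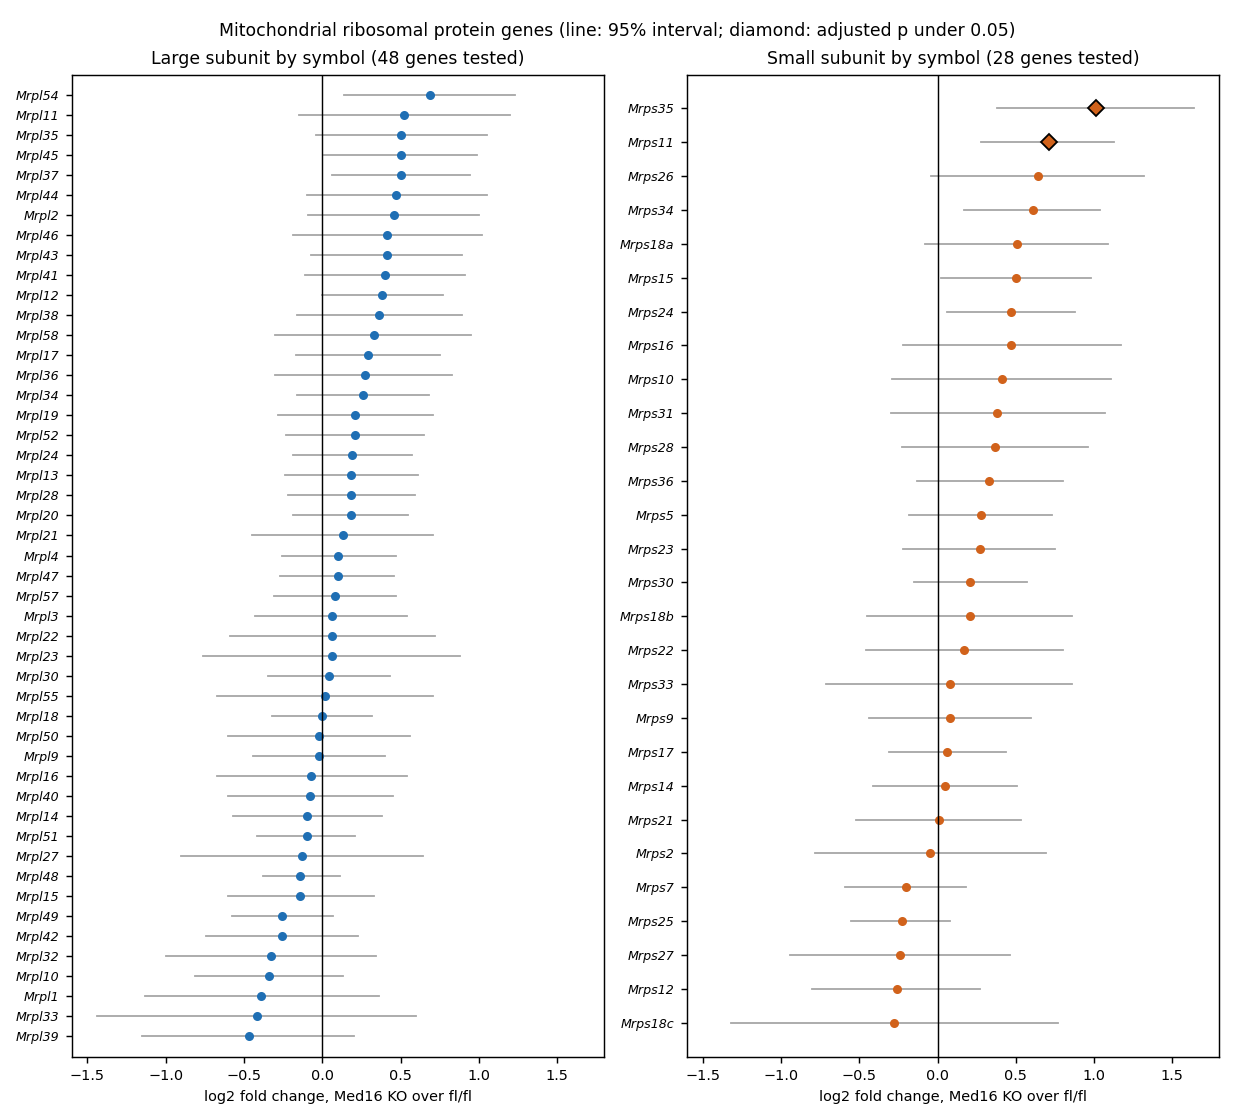
Log2 fold change of Med16 KO over fl/fl (horizontal axis) with its 95% interval for each of 48 large subunit genes (left) and 28 small subunit genes (right), sorted by value; black-edged diamonds mark an adjusted p under 0.05. Mrps35 (1.01) and Mrps11 (0.71) are the 2 diamonds, and most other intervals include 0.

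Among the large subunit genes none passed the test. Mrpl54, a mitochondria-specific protein, had the largest log2 fold change, from 14.7 and 10.0 CPM in fl/fl to 19.0 and 20.9 CPM in KO (0.69 ± 0.25, edgeR adjusted p = 0.076). Both KO values were above both fl/fl values, and the fl/fl libraries differed from each other by 1.47-fold. Mrpl37 was at 20.8, 19.3, 24.3 and 32.5 CPM (0.50 ± 0.21, adjusted p = 0.112) and Mrpl45 at 15.7, 13.1, 19.4 and 21.3 CPM (0.50 ± 0.23, adjusted p = 0.158), both named after their values were seen as the other large subunit genes at an unadjusted p under 0.05. Mrpl45 lies at the exit of the peptide tunnel, where the ribosome meets the inner membrane. At the other end Mrpl39 was at 10.8, 12.9, 6.74 and 10.3 CPM (-0.47 ± 0.31, adjusted p = 0.344), with both KO values below both fl/fl values.

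The genes of the stalk, which recruits translation factors, gave values of either sign, none past the threshold. Mrpl12, its repeated subunit, was at 30.6, 24.2, 33.4 and 38.1 CPM (log2 fold change 0.38 ± 0.18, adjusted p = 0.169). Mrpl10, on which Mrpl12 is anchored, was at 21.4, 23.1, 19.8 and 15.3 CPM (-0.34 ± 0.22, adjusted p = 0.334), and Mrpl11, at the base, at 8.49, 6.96, 12.8 and 9.41 CPM (0.52 ± 0.32, adjusted p = 0.297). In Mrpl12 and Mrpl11 the KO libraries lay above the fl/fl libraries and in Mrpl10 below them. Mrpl3, close to the peptidyl transferase centre, was at 25.5, 22.2, 19.2 and 30.5 CPM (0.06 ± 0.23, adjusted p = 0.904). Mrpl58, a peptidyl-tRNA hydrolase built into the large subunit that frees stalled chains, was at 12.3, 10.0, 17.1 and 10.9 CPM (0.33 ± 0.29, adjusted p = 0.502). Both overlapped between the genotypes.

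**Figure D3:**
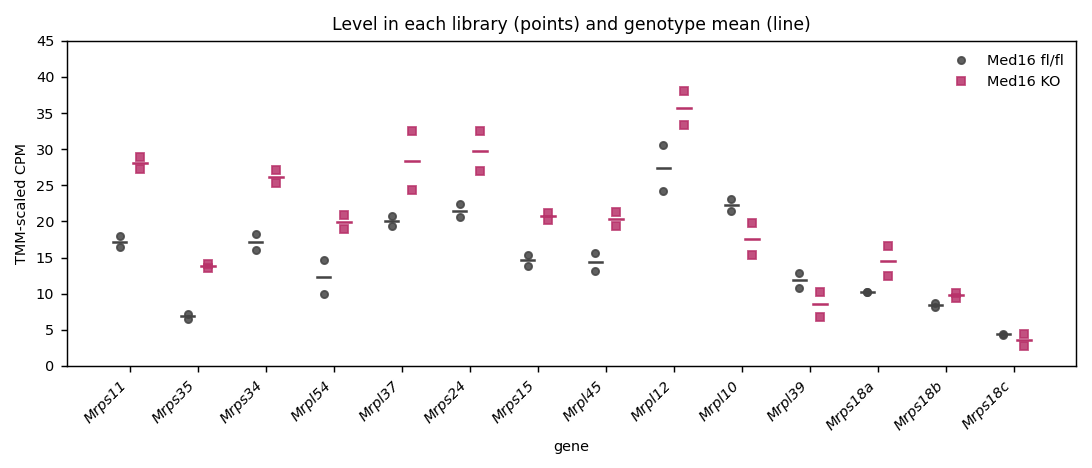
TMM-scaled CPM (vertical axis, linear, from 0) of 14 mitochondrial ribosomal protein genes in each library, with fl/fl as grey circles, KO as magenta squares and short lines for the mean of the 2 libraries. Mrps11, Mrps35 and Mrps34 show the widest separation relative to the gap within a genotype, Mrpl10 and Mrpl39 lie lower in KO, and Mrps18c overlaps.

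Set side by side, values of the small subunit lay somewhat above those of the large subunit. The medians differed by -0.14 (large minus small). Between libraries of a genotype, the large minus small difference of median log2 CPM had an SD of 0.15. By symbol, 32 of 48 large subunit genes (66.7%) had a positive and 16 a negative log2 fold change, with a median of 0.10. Of 28 small subunit genes, 22 (78.6%) had a positive and 6 a negative one, with a median of 0.24. Positive values made up 55.3% of genes of similar level and 58.7% of the 2219 genes between 12.4 and 25.5 CPM. Both KO libraries lay above both fl/fl libraries in 14 and below in 9 of the 48 large subunit genes (29.2% and 18.8%), and above in 12 and below in 2 of the 28 small subunit genes (42.9% and 7.14%). The large subunit is thus near the background of 29.4% above, and the small subunit lies over it. The shares below of both subunits are under the 28.2% of all genes tested and the 23.4% of genes of similar level. Of the 2219 genes between 12.4 and 25.5 CPM, 35.0% lay above and 20.2% below, with a median of 0.10. The large subunit had the same median, a lower share above and a share below (18.8%) close to theirs. That band holds only 38 of the 76 genes. These differences were not tested. The summed level of the large subunit genes was 1002 and 992 CPM in fl/fl and 1055 and 1087 CPM in KO, a ratio of 1.07. That of the small subunit genes was 480.2 and 454 CPM in fl/fl and 516 and 559 CPM in KO, a ratio of 1.15. The large to small ratio of these sums was 2.09 and 2.18 in fl/fl and 2.04 and 1.94 in KO, or 2.13 ± 0.0678 against 1.99 ± 0.0700 (SD, n = 2), and its genotypes did not overlap; no test was made. With Mrps18a and Mrps30 counted in the large subunit and Mrps36 left out, the ratios were 2.49 and 2.65 in fl/fl and 2.57 and 2.32 in KO, which overlapped, and the medians were 0.12 (50 genes) and 0.21 (25 genes). The separation of the ratio thus depended on how 3 genes were assigned.

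Libraries of a genotype differed more in KO than in fl/fl. Over the 76 genes the median absolute log2 ratio between the 2 libraries was 0.18 in fl/fl and 0.33 in KO, and it was 0.18 and 0.27 over the 7968 genes of similar level. More than 1.5-fold apart were 2 genes (2.63%) within the fl/fl pair and 18 (23.7%) within the KO pair, 7 of these higher in KO 1 and 11 higher in KO 2; for genes of similar level the shares were 7.93% and 20.2%. Mrpl23, at the rim of the peptide tunnel exit, had the widest gap. It was at 10.8 and 10.3 CPM in fl/fl, 16.1 CPM in KO 1 and 5.74 CPM in KO 2, a 2.81-fold gap between the KO libraries. Without KO 1 its log2 fold change turned from 0.06 to -0.89 (adjusted p = 0.035), and without KO 2 it was 0.60 (adjusted p = 0.071). Mrpl33 was at 4.81, 6.67, 6.04 and 2.50 CPM, a 2.41-fold gap in KO, and Mrps2 at 9.63, 10.4, 12.9 and 6.47 CPM, both lower in KO 2. The opposite held for Mrpl32 (22.8, 16.7, 9.69 and 21.8 CPM, 2.25-fold) and Mrps26 (2.01-fold), both higher in KO 2. Mrps2, Mrpl32 and Mrps26 are named after their values were seen.

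**Figure D4:**
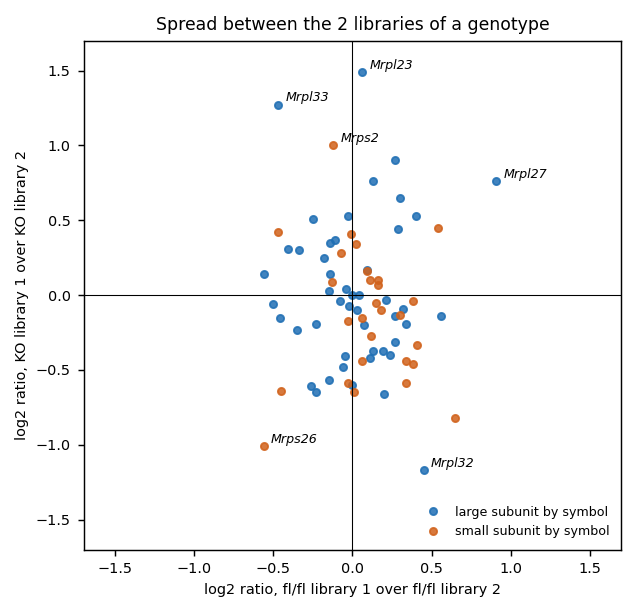
Log2 ratio between the 2 KO libraries (vertical axis) against that between the 2 fl/fl libraries (horizontal axis) for 76 genes, in blue for the large and in orange for the small subunit. The cloud is taller than wide: 18 genes differ by over 1.5-fold within the KO pair and 2 within the fl/fl pair, and Mrpl23 (2.81-fold) stands at the top.

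Leaving out a KO library changed which genes passed. Without KO 1, 10 of the 76 genes were called higher and 1 lower, and without KO 2, 8 were called higher and 3 lower (Mrpl32, Mrpl39 and Mrps25), while 13.4% and 12.4% of all genes were called higher and 15.7% and 15.8% lower in those fits. Mrps11, Mrps35 and Mrps34 were called higher in both. Mrps26 (1.05, adjusted p = 8.5e-05) and Mrps16 (0.81, adjusted p = 0.0086) were called only without KO 1, and Mrpl46 (0.78, adjusted p = 0.0027) and Mrpl43 (0.63, adjusted p = 0.011) only without KO 2. With 1 KO library, that library is assumed to vary like the fl/fl pair.

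Levels across genes were compared per kilobase of annotated exon, averaged over the 4 libraries. In the large subunit the highest were Mrpl34 (42.9 CPM per kb), Mrpl18 (37.1) and Mrpl28 (22.8), and the lowest of those tested Mrpl23 (2.20), Mrpl1 (1.78) and Mrpl33 (0.683). In the small subunit the highest were Mrps21 (25.6 CPM per kb), Mrps36 (14.9 to 25.6 across libraries) and Mrps24 (17.5), and the lowest of those tested Mrps31 (2.61), Mrps10 (1.23) and Mrps35 (1.20). Exon length here is the union over all annotated transcripts, which lowers the value of genes whose union is much longer than their longest transcript. Such genes include Mrps35 (8631 against 4607 bases) and Mrpl33 (7326 against 2741 bases). Mrps35 thus rose from 0.836 and 0.756 to 1.58 and 1.64 CPM per kb and stayed among the lowest of the small subunit. Mrpl34 was at 42.7, 35.4, 41.9 and 51.9 CPM per kb and Mrps21 at 28.5, 22.6, 20.5 and 30.9 CPM per kb, and both overlapped between the genotypes. Without length scaling Mrpl48 drew the most reads, at 66.7, 68.4, 62.2 and 60.6 CPM (log2 fold change -0.14 ± 0.11, adjusted p = 0.465).

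The 2 genes that were not tested had few or no counts. Mrpl53 had 0 counts in all 4 libraries, which allows up to 0.421 to 0.441 CPM; 88.0% of its exon length overlaps Gm42688 on the same strand, and reads in exons that genes share can be left unassigned as ambiguous. Mrps6 had 7, 7, 4 and 3 counts, and overlaps Slc5a3 (10.4% of its exon length) and Gm49711 (19.9%) on the same strand. Some exon overlap with another gene was annotated for 33 of the 78 genes, on the opposite strand and over the longest stretches in Mrps25 (69.8%, with Nr2c2), Mrps34, Mrpl19 (36.0%, with Gcfc2) and Mrpl43 (33.4%, with Twnk). The 45 without any had a median log2 fold change of 0.18, and the 31 tested genes with overlap one of 0.13. Mrps11 and Mrpl46, of the small and the large subunit, are divergent neighbours whose RefSeq starts lie 41 bases apart, and their GENCODE exons overlap by 173 bases on opposite strands. Mrpl46 was at 16.1, 13.3, 25.6 and 13.7 CPM (log2 fold change 0.41 ± 0.28, adjusted p = 0.361), with KO 2 inside the fl/fl range, whereas both KO libraries lay above fl/fl for Mrps11; the difference between the 2 genes was not tested. Another 22 of the genes have a divergent protein-coding neighbour (starts at most 500 bases apart, or overlapping by at most 300 bases). Of the 20 such neighbours that were tested, 0 were called higher and 2 lower, the latter share being that of all genes (10.0%), Ncapd2 beside Mrpl51 (-0.29, adjusted p = 0.003) and Ppp1r10 beside Mrps18b (-0.45, adjusted p = 0.021), while neither Mrpl51 (-0.10) nor Mrps18b (0.21) passed.

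Across the 76 genes the log2 fold change went weakly with the GC content of the longest transcript (Spearman's rho 0.29, Pearson's r 0.29). It hardly went with mean CPM (-0.01 and -0.11) or the length of the longest transcript (-0.07 and -0.04). These are correlations across genes of the same 4 libraries, not across independent replicates. With the GC trend of each library removed, the median of the 76 was 0.20, and with the length trend removed 0.12, against 0.18 without.

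Other genes of mitochondrial translation showed few calls and in both directions. Of 5 mitochondrial ribosomal proteins with other symbols, Gadd45gip1 was lower (333 and 321 CPM in fl/fl, 289 and 285 CPM in KO; log2 fold change -0.19 ± 0.06, adjusted p = 0.025), and the median was -0.07. Gadd45gip1 sits near the tunnel exit of the large subunit and was the most abundant of those 5. Of 24 assembly factors, Mrm1, which methylates the large ribosomal RNA, was lower (84.4, 74.5, 63.3 and 54.1 CPM; -0.44 ± 0.12, adjusted p = 0.020) and none higher (median 0.04). Of 16 translation factors, Tufm, the elongation factor that brings aminoacyl-tRNA to the ribosome, was higher (31.7, 30.9, 45.5 and 43.2 CPM; 0.50 ± 0.15, adjusted p = 0.033). The release factor gene Mtrf1l was lower (14.7, 17.4, 8.29 and 9.12 CPM; -0.88 ± 0.27, adjusted p = 0.035), and Lrpprc, which stabilises mitochondrial messenger RNAs and was the most abundant of the list, was at 81.0, 79.6, 59.0 and 68.7 CPM (-0.33 ± 0.11, adjusted p = 0.057). Of 20 aminoacyl-tRNA synthetases and their partners, Tars2 was higher (16.1, 16.5, 28.4 and 23.7 CPM; 0.67 ± 0.21, adjusted p = 0.036) and none lower. Of 16 genes of mitochondrial DNA transcription and RNA processing, 0 were called by edgeR and 1 had an unadjusted p under 0.05 (median 0.20), and of 8 tested regulators such as Yy1, 0 were called and 2 had an unadjusted p under 0.05 (median -0.08). Each of these calls was lost in at least 1 alternative analysis.

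Many cytosolic ribosomal protein genes were called higher. Of 78 tested, 34 were higher and 1 lower, beside 8.32% and 10.0% of all genes. All genes tested had a median level of 18.2 CPM and a median SE of 0.24. A share over genes at the level of the cytosolic set was not taken. The median log2 fold change of the 78 was 0.17, close to the 0.18 of the mitochondrial set. Their median level was 332 CPM against 17.5 CPM and their median SE 0.06 against 0.23, and the calls were 34 of 78 against 2 of 76. Cytosolic ribosomal protein genes have many processed pseudogenes, which makes their counts less certain. Rps9 was at 537 and 518 CPM in fl/fl and 661 and 669 CPM in KO (0.34 ± 0.05, adjusted p = 6.4e-05), and Rplp0, the most abundant, at 1655, 1577, 1800.1 and 1895 CPM (0.19 ± 0.04, adjusted p = 0.0019). Both had their KO values above their fl/fl values. Of 80 nuclear oxidative phosphorylation genes tested, 6 were higher and 0 lower (median 0.10), among them Atp5g2 (0.67 ± 0.17, adjusted p = 0.0098). The share called higher was close to the 8.32% of all genes. Of 10 tested genes for mitochondrially encoded proteins, the products of the mitochondrial ribosome, 5 were higher and 0 lower (median 0.27). mt-Nd1 was at 658, 692, 908 and 949.7 CPM (0.46 ± 0.04, adjusted p = 1.9e-06), and mt-Co1, the most abundant, at 4736, 5068, 4617 and 4722 CPM (-0.07 ± 0.03, adjusted p = 0.172). The 5 called genes all encode subunits of complex I. Outside complex I, mt-Co2, mt-Co3 and mt-Atp6 had only 74 to 99, 31 to 48 and 34 to 49 counts per library (SE 0.27 to 0.40). A change of the size called could not be seen in these genes, so the calls do not set complex I apart from them. Of the genes outside complex I, only mt-Co1 and mt-Cytb (0.11 ± 0.05) had high counts, and neither was called. Over the alternatives run, with 2 genes called when a coefficient of variation of 0.2 was assumed, the cytosolic set had between 2 and 41 genes called higher and the mitochondrially encoded set between 0 and 7. The nuclear oxidative phosphorylation set had between 0 and 10 called higher and between 0 and 4 lower.

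**Figure D5:**
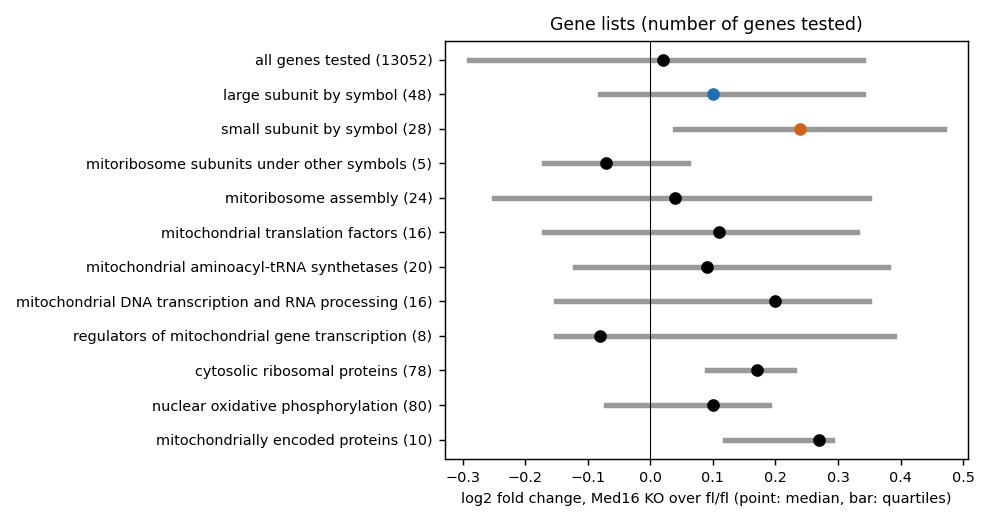
Median (point) and quartiles (bar) of the log2 fold change of Med16 KO over fl/fl (horizontal axis) for each list, with the number of genes tested. The small subunit (0.24), the cytosolic ribosomal proteins (0.17) and the mitochondrially encoded proteins (0.27) have their lower quartile above 0, whereas the bar of all genes tested is centred near 0 (0.02).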

How the data were processed

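The authors deposited whole-number read counts per gene, 1 table for each of the 4 libraries. Per the submitters' processing notes, reads were handled with HISAT2 2.1.0, HTSeq 0.12.4, FastQC 0.11.7, HOMER and DESeq2 on build GRCm39. For the counting, strand setting and annotation release are not given in these sources. Library sizes and tests leave out 5 entries that name no gene, such as reads without a feature (35.8% to 36.7%), without a unique alignment (23.6% to 26.4%) or ambiguous (2.54% to 2.96%). Counts were analysed with edgeR 4.0.16 in R 4.3.3: filterByExpr by genotype, TMM scaling and a two-sided quasi-likelihood test of genotype, without other terms, adjusted by Benjamini-Hochberg over 13052 genes and called at an adjusted p under 0.05 (common biological coefficient of variation 0.125, 2 residual degrees of freedom). The procedure was tested on simulated data. Alternatives were DESeq2 1.42.0, scaling by library size, other low-count filters, an assumed coefficient of variation of 0.2, GC and length offsets, a replicate block, subunits by structure and leaving out each library.

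Lengths, GC content and exon overlaps came from GENCODE M21, which is on another build (GRCm38); GC content was known for 98.4% of genes tested. Promoters came from the RefSeq table (GRCm38.p6), which was matched by 69 of the 78 symbols. The members, lists and tests were chosen with earlier results of these data known. The genes named are those called or not tested, the extremes of level and of fold change in each subunit, 13 fixed members, and from each related list the called genes with the smallest adjusted p and the most abundant gene. Genes with YY1 letters in the promoter are named for them, and further genes were named after their values were seen.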

Additional observations from a re-analysis of the deposited data

Results flagged for a closer look

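Copies of these genes that are annotated as pseudogenes fall outside the symbol rule, and 2 of them had more counts in a KO library than in either fl/fl library. Mrpl23-ps1 had 7 and 2 counts in fl/fl and 2 and 26 counts in KO 1 and KO 2, and its sum with Mrpl23 was 83, 73, 117 and 65 counts across the same libraries. Mrpl48-ps had 6 and 1 counts in fl/fl and 7 and 6 counts in KO. How reads were divided between these copies and their parent genes was not tested.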

How the results depend on the processing

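The 2 member genes called higher became 1 with DESeq2, 0 with an assumed coefficient of variation of 0.2, 1 with the GC content offset and 0 to 10 when a library was left out (0 without either fl/fl library, 10 without KO 1, 8 without KO 2); the 0 called lower became 0 to 3. In the large subunit the 0 higher and 0 lower became 0 to 4 and 0 to 2 when a library was left out. In the small subunit the 2 called higher became 1 with DESeq2, 0 with the assumed variation, 1 with the GC content offset and 0 to 6 when a library was left out, and the 0 lower became 0 to 1. With the replicate number from the titles as a block, 4 members were called higher, 1 of them in the large subunit (Mrpl54); the deviations of same-numbered libraries correlated at -0.0131, so the numbers are not shown to pair the libraries, and 2767 genes in all were called against 2391. The log2 fold change of Mrpl23 reversed without KO 1, and ranged from -0.89 to 0.60 when a library was left out. The median log2 fold change of the members was 0.12 with the transcript length offset. The medians of both subunits and their order kept their sign under every alternative run, with the large minus small difference between -0.16 and -0.08. All alternatives drew on the same 4 libraries, so a kept sign does not show that the order would recur. Between libraries of a genotype, the large minus small difference of median log2 CPM had an SD of 0.15. Scaling by library size alone moved the median of all genes from 0.02 to 0.07 and gave 1347 genes higher and 1057 lower in place of 1086 and 1305. Assuming a variation of 0.2 left 620 genes called, leaving out a fl/fl library 1334 and 1199, and leaving out a KO library 3998 and 3878. With 1 library left in a genotype, it was assumed to vary like the other genotype.

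The limits are the 2 libraries per genotype, whose origin in separate animals is not stated, counts of 17 to 472 per gene tested and library, and an unknown strand setting, which leaves genes with exons on both strands uncertain.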
